A study of Homo sapiens with 6 samples.

Results

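The genes described here are 34 chemokine, cytokine and NF-kappaB pathway genes, chosen by symbol for their place in that pathway. They were measured in VCaP cells, an established prostate cancer line that carries the TMPRSS2/ERG fusion, after transfection with SOX9 siRNA or control siRNA. Of the 34, 31 had at least 1 array probe set annotated to that gene alone, out of 19775 such genes on the array, and the brightest of these on average stands for the gene. BCL3 shared both of its probe sets with another symbol, and TRAF2 and BIRC3 had none in the annotation used, so the 3 were not analysed here. Of the 31 genes, 26 had a mean at or above the level set as a filter, a signal of 22, and were tested among 12431 genes. IL6, IL1A, IL1B, LIF and TRAF1 lay below it and are given as values only.

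The study used 3 groups of 2 arrays, which its design text describes as biological duplicates: SOX9 siRNA A, SOX9 siRNA B and a non-targeting control siRNA. All 3 groups were grown in DMEM with fetal bovine serum, all were transfected, and RNA was taken 72 h later. No untransfected cells were analysed here. The measured values are MAS5 signals, a linear array intensity in arbitrary units. The RNA came from whole cultures, so fewer cells of a type and less RNA per cell cannot be told apart. With 2 arrays a group, precision is limited throughout.

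The median signal ran from 21.2 to 26.3 over the 6 arrays. The prostate and fusion markers KLK2, KLK3, TMPRSS2, ERG, HOXB13, FOXA1, KRT8 and KRT18, 8 of 10 on that list, had mean signals from 702 to 16650. In 2 of them, KLK3 and TMPRSS2, replicate 2 of both SOX9 siRNAs lay below the other 4 arrays, at 825 and 833 against 1295 to 2064 for KLK3. SOX9 itself read 1469 and 1126 in control replicates 1 and 2, 1108 and 673 under siRNA A, and 609 and 334 under siRNA B. SOX9 thus lay at -1.02 (SE 0.29, log2 scale) for the siRNAs combined, short of the threshold (limma adjusted p = 0.435). For the siRNAs combined it fell once the replicate number entered as a block (limma adjusted p = 0.00189). For siRNA B alone SOX9 lay at -1.48 and fell with the block (limma adjusted p = 1.8e-05). For siRNA A alone it lay at -0.57 and did not pass, with the block (limma adjusted p = 0.529) or without (0.999). The pair of replicate 2 arrays with SOX9 siRNA differed most from the rest. Over the tested genes the replicate 2 array of siRNA B correlated with the controls at 0.943 and 0.949 and that of siRNA A at 0.959 and 0.968, against 0.981 to 0.988 for the replicate 1 arrays. Results are therefore given with and without those 2 arrays.

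NF-kappaB is a family of dimeric transcription factors built from REL, RELA, RELB, NFKB1 and NFKB2. Inhibitors of the IkappaB family hold the dimers in the cytoplasm until the IKK kinase complex marks them for destruction. Released dimers switch on chemokine and cytokine genes, and also their own brakes, among them NFKBIA and TNFAIP3 (A20), so that the response is self-limiting. In prostate cancer cells the pathway is known for its output of chemokines such as CXCL8 and CCL2.

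The promoters of the chemokine genes and of TNFAIP3 are shown because these genes fell in the blocked fit described further on, or lie beside one that did, and hold letters of the kind NF-kappaB binds. Each line gives the 250 bases before the gene start in RefSeq's GRCh38.p14 promoter table, 5′ to 3′ on the gene's strand. Capitals mark matches to the kappaB consensus or to the 9-letter kappaB form GGAATTTCC, on either strand, with overlapping matches joined.
CXCL8 (chr4:73740319-73740568, plus strand): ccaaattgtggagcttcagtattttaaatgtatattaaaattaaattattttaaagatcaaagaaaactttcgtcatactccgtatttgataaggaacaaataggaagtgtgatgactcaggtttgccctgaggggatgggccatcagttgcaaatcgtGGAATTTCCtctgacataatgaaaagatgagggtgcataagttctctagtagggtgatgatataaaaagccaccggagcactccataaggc
CXCL1 (chr4:73869143-73869392, plus strand): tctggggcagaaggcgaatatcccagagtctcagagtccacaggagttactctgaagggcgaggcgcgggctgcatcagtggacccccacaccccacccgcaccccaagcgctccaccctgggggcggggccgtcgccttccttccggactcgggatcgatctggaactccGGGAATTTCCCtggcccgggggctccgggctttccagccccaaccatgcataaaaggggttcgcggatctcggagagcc
CXCL3 (chr4:74038690-74038939, minus strand): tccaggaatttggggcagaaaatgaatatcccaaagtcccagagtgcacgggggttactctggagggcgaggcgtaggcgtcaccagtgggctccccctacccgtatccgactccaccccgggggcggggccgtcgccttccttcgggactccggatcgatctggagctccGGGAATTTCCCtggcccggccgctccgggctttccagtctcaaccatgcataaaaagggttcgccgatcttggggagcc
CXCL2 (chr4:74099196-74099445, minus strand): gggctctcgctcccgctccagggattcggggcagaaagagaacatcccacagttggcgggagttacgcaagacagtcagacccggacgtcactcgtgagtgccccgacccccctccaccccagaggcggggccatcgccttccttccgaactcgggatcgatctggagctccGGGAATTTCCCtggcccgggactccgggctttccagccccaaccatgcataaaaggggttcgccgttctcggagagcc
CCL20 (chr2:227813592-227813841, plus strand): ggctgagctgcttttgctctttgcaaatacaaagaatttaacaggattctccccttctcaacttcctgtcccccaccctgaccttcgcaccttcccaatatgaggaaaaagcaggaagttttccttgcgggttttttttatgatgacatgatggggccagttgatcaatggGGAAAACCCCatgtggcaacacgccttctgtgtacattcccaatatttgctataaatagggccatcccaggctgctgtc
TNFAIP3 (chr6:137867009-137867258, plus strand): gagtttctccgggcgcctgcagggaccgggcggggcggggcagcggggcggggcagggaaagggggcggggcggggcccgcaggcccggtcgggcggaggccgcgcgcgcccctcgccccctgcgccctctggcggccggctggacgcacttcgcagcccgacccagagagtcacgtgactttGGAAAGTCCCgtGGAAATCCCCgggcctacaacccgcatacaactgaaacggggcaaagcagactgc
CXCL1, CXCL3 and CXCL2 share the match GGGAATTTCCC, which spans bases 79 to 69 before the start in the first 2 and 78 to 68 in CXCL2. CXCL8 has the shorter GGAATTTCC at 91 to 83 and no match to the full consensus. CCL20 has GGAAAACCCC at 79 to 70, and TNFAIP3 has a pair of matches, GGAAAGTCCC at 67 to 58 and GGAAATCCCC at 55 to 46. The aligned promoters of CXCL1 and CXCL3 were identical at 86.8% of 242 bases, those of CXCL1 and CXCL8 at 53.6% of 222.

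The promoter table held 26 of the 31 genes. CCL2, IKBKB, LIF, NFKBIE and RELB had no entry. With the first listed promoter per gene, the kappaB consensus was found in 11 of the 26, against 9.57% of 27305 genes. The form GGAATTTCC was found in 9 of the 26, against 0.428% of genes: CXCL1, CXCL2, CXCL3, CXCL8, ICAM1, NFKB1, NFKBIA, NFKBIZ and REL. The AP-1 motif TGANTCA was found in CXCL8 and IL1A (6.60% of genes), and the SOX core AACAAT in IL1A and IL1B (9.19% of genes). These matches are descriptions of the letters and not of binding.

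Among the tested ligands, signal in replicate 1 of siRNA A was near the control range for most genes. It lay above both controls for CCL20, and by less for CCL2 and CXCL8. Ligand signal was lower in replicate 1 of siRNA B, and lowest in replicate 2 of both siRNAs. CCL2, which attracts monocytes, had a signal of 2004 and 1883 in control replicates 1 and 2, 2134 and 31.3 under siRNA A and 1021 and 47.9 under siRNA B. The 2 replicate 2 siRNA arrays lay 60.2-fold and 39.3-fold below control replicate 2. CCL2 in replicate 1 of siRNA A lay above both controls, so the siRNA and control groups overlap.

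CXCL8 (interleukin 8), a neutrophil chemoattractant, had a signal of 1060 and 784 in control, 1080 and 58.7 under siRNA A and 504 and 95.7 under siRNA B. Its second probe set gave 291 and 172, 263 and 14.1, and 103 and 22.5, the same order of siRNA arrays at a lower signal. The brighter CXCL8 probe set, like those of CXCL2 and NFKBIB, is of Affymetrix's x_at class, which may also bind similar transcripts. The groups again overlapped through replicate 1 of siRNA A, while replicate 2 lay 13.4-fold (siRNA A) and 8.19-fold (siRNA B) below its control.

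CXCL1, CXCL2 and CXCL3 are closely related ligands of the neutrophil receptor CXCR2. CXCL1 had a signal of 348 and 281 in control, 347 and 47.7 under siRNA A and 178 and 59.7 under siRNA B. CXCL3 had 101 and 107 in control, 91.5 and 16.4 under siRNA A and 46.5 and 14.0 under siRNA B. In CXCL3 all 4 siRNA arrays lay below both controls, by little in replicate 1 of siRNA A. CXCL2 had 70.6 and 67.4 in control, 63.7 and 10.9 under siRNA A and 54.2 and 22.4 under siRNA B, also with all 4 below both controls. Its further probe sets read at most 9.8 and 4.3 in any array, below the filter signal, and did not repeat that order. The CXCL2 result thus rests on the x_at probe set alone.

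CCL20, the ligand of CCR6, had a signal of 178 and 245 in control, 310 and 1.9 under siRNA A and 94.1 and 4.0 under siRNA B. TNF, the cytokine that starts the canonical pathway, had 43.5 and 51.9 in control, 51.8 and 2.9 under siRNA A and 39.1 and 8.5 under siRNA B. The replicate 2 siRNA values of CCL20, CXCL3 and TNF lie below the filter signal of 22, so the size of their differences is uncertain. In 7 of the 7 tested ligands the replicate 2 siRNA arrays were the 2 lowest, as in 12.5% of all tested genes, and replicate 1 of siRNA B was the third lowest.

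**Figure D1:**
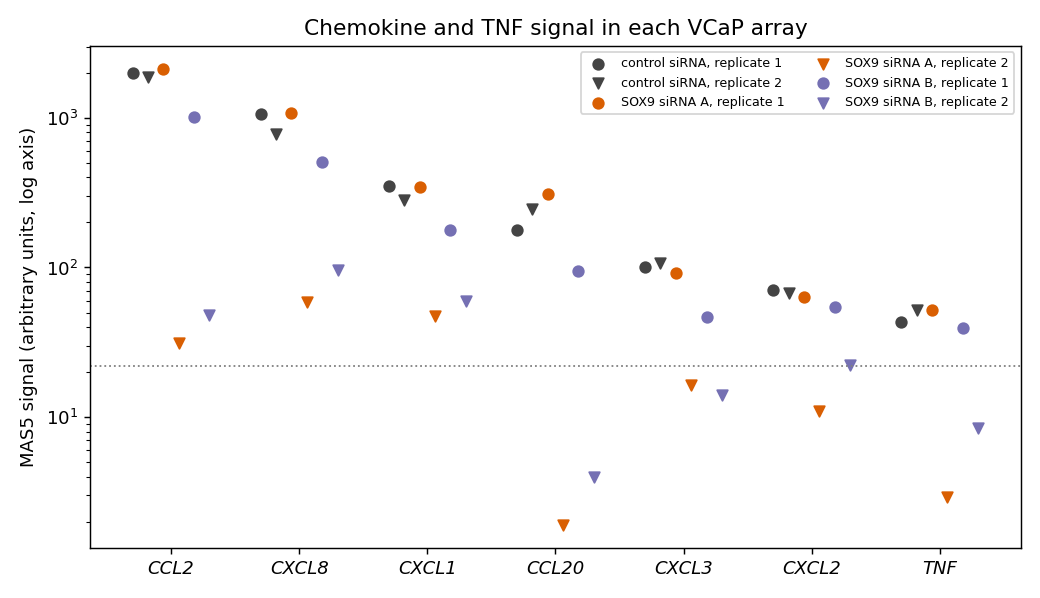
MAS5 signal (log axis, arbitrary units) of the 7 tested ligand genes in each of the 6 arrays; colour gives the siRNA and shape the replicate number, and the dotted line is the filter signal of 22. The downward triangles of both SOX9 siRNAs (replicate 2) lie below every other point of each gene, for CCL2 at 31.3 and 47.9 against 1021 to 2134.

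In the test of both siRNAs against control over all 6 arrays, the log2 fold change was -2.77 for CCL2 (SE 1.08), -1.91 for CCL20 (SE 0.79) and -1.82 for CXCL8 (SE 0.73). It was -1.28 for CXCL1 (SE 0.50), -1.25 for CXCL3 (SE 0.39), -0.81 for TNF (SE 0.42) and -0.79 for CXCL2 (SE 0.37). Fold changes are differences of log2(signal + 16), which understates the change of dim genes. None of these 7 passed, with limma adjusted p from 0.468 to 0.689, where 0.0402% of all tested genes did. Without replicate 2 of both SOX9 siRNAs the values lay between -0.55 (CXCL3) and -0.06 (TNF), with limma adjusted p from 0.950 to 0.981. Without replicate 1 of both they were -5.15 for CCL2, -3.57 for CCL20, -3.34 for CXCL8 and -2.24 for CXCL1, and all 7 passed, as did 4.71% of all tested genes (largest limma adjusted p = 0.0104, for CXCL2). That fit takes the remaining arrays of both siRNAs as 1 group.

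With the replicate number as a block, 5 ligand genes fell: CCL2, CCL20, CXCL8, CXCL1 and CXCL3, with limma adjusted p from 1.75e-25 to 0.000156, where 2.42% of all tested genes fell. CXCL2 (limma adjusted p = 0.0628) and TNF (0.0863) did not pass. There the prior degrees of freedom were infinite, meaning that each gene's error came from the intensity trend and not from its own residuals, so these p-values can be too small. With the block and median centring the same 5 fell with limma adjusted p from 0.00138 to 0.0113. There those degrees of freedom were finite but still 25.2 with 6 arrays. The error thus still leaned on the trend, and these p-values can be too small as well. For CCL2 the SE was 0.245 with the block alone and 1.08 without it. The block takes the replicate difference as equal in all groups. For CCL2 the difference of replicate 2 minus replicate 1 was -0.09 in control, -5.51 under siRNA A and -4.02 under siRNA B on the log2 scale.

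The other 4 cytokine genes were near the low end of the array. IL6, the cytokine that signals through IL6ST, had signals from 9.7 to 18.8 over the 6 arrays. IL1A ran from 0.9 to 8.9. LIF, of the IL6 family, ran from 1.7 to 2.5 in 5 arrays and was 16.6 in control replicate 1. IL1B had 15.5 and 13.5 in control, 26.0 and 28.9 under siRNA A and 4.3 and 4.0 under siRNA B. The 3 IL1B groups do not overlap, though 4 of the 6 signals lie below 22 and IL1B was not tested.

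Of the IKK complex, the catalytic subunit IKBKB had lower signal in each siRNA array than in both controls, and the catalytic subunit CHUK had higher signal. IKBKB had a signal of 521 and 594 in control, 447 and 240 under siRNA A and 289 and 150 under siRNA B. At -1.04 (SE 0.30, log2 scale) for both siRNAs it did not pass (limma adjusted p = 0.435). The replicate block gave a limma adjusted p of 0.00150, so IKBKB fell in that fit, and it was at -0.61 without replicate 2 of both siRNAs. A second IKBKB probe set gave -0.44 in a fit over all probe sets. In it the groups overlapped, with replicate 1 of siRNA A at 83.1 and the controls at 79.7 and 98.0.

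CHUK had a signal of 313 and 407 in control, 412 and 648 under siRNA A and 446 and 725 under siRNA B. All 4 CHUK values with SOX9 siRNA lay above both controls, narrowly for replicate 1 of siRNA A. Its log2 fold change was 0.58 (SE 0.28, limma adjusted p = 0.657; 0.222 with the replicate block). IKBKG, the regulatory subunit, had values from 53.4 to 77.4 in all groups and a log2 fold change of 0.14, or -0.072 without control replicate 2.

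The inhibitors of the IkappaB family had negative log2 fold changes in 3 of 4 tested members, at -0.51 to -0.67. NFKBIA, the main inhibitor of the canonical dimer, had a signal of 1337 and 1392 in control, 1226 and 627 under siRNA A and 935 and 1151 under siRNA B. NFKBIE had 185 and 182 in control, 129 and 88.3 under siRNA A and 129 and 122 under siRNA B. In both genes all 4 siRNA arrays lay below both controls, and NFKBIA did not share the low replicate 2 value of siRNA B that the chemokines had.

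The log2 fold changes were -0.51 for NFKBIA, -0.60 for NFKBIE and -0.67 for NFKBIB (limma adjusted p from 0.567 to 0.689; 0.156 to 0.299 with the replicate block). NFKBIB was dim, with 31.2 and 50.9 in control and 10.4 to 30.1 with SOX9 siRNA. Its further probe sets lay below the filter level and differed in direction. One had 19.9 and 5.5 in control, 26.8 and 10.3 under siRNA A and 43.2 and 25.1 under siRNA B. There each siRNA array lay above its same-numbered control. The other had 23.1 and 33.3, 14.8 and 28.0, and 10.1 and 16.3, each siRNA array below its control. NFKBIZ, an atypical nuclear member, had 295 and 431 in control, 391 and 592 under siRNA A and 302 and 406 under siRNA B. NFKBIZ signal overlapped between groups, and its log2 fold change of 0.20 turned to -0.065 without control replicate 1 and -0.050 without replicate 2 of both siRNAs.

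TNFAIP3, the deubiquitinase A20, and its partner TNIP1 act as brakes on signalling to IKK. TNFAIP3 had a signal of 235 and 250 in control, 208 and 50.6 under siRNA A and 178 and 137 under siRNA B, with all 4 siRNA arrays below both controls. Its second probe set gave 80.9 and 86.9, 79.0 and 27.5, and 63.2 and 50.4, in the same order. The log2 fold change of TNFAIP3 was -0.83 (SE 0.36, limma adjusted p = 0.603; it fell with the replicate block, 0.0153, and did not pass with the block and median centring, 0.0554) and -0.31 without replicate 2 of both siRNAs. TNIP1 had 652 and 699 in control, 758 and 388 under siRNA A and 472 and 340 under siRNA B. TNIP1 thus overlapped between groups, at -0.52 (limma adjusted p = 0.707).

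Signals of the 5 genes for the REL and NF-kappaB subunits overlapped between control and siRNA arrays. RELA, the main activating subunit, had 704 and 702 in control, 729 and 682 under siRNA A and 656 and 786 under siRNA B. NFKB1 had 229 and 270 in control, 248 and 237 under siRNA A and 221 and 406 under siRNA B, with the 1 high value in replicate 2 of siRNA B. The log2 fold changes were 0.02 for RELA, 0.11 for NFKB1, 0.04 for NFKB2, -0.25 for REL and -0.17 for RELB, with limma adjusted p from 0.882 to 0.993. The sign of each of these 5 turned under at least 1 other setting.

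Among the remaining members, TNFAIP2 and SOD2, both induced by TNF, had all 4 SOX9 siRNA arrays below both controls. TNFAIP2 had a signal of 171 and 189 in control, 163 and 55.1 under siRNA A and 149 and 59.6 under siRNA B. SOD2, the mitochondrial superoxide dismutase, had 118 and 159 in control, 116 and 72.5 under siRNA A and 68.7 and 75.8 under siRNA B. TNFAIP2 followed the replicate number, while SOD2 was as low in replicate 1 of siRNA B as in the replicate 2 arrays. Their log2 fold changes were -0.80 and -0.65 (limma adjusted p = 0.621 and 0.542). In the blocked fit TNFAIP2 fell (limma adjusted p = 0.0230) and SOD2 did not pass (0.109). With median centring added, TNFAIP2 did not pass either (limma adjusted p = 0.0603).

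IL6ST (gp130), the signal-transducing receptor of IL6 and LIF, had another order of arrays than the ligands. Its signal was 2466 and 2572 in control, 2373 and 2033 under siRNA A and 1341 and 1336 under siRNA B. Both siRNA B arrays lay below the other 4, as in 10.9% of all tested genes, and their replicates were nearly equal. The log2 fold change was -0.90 for siRNA B (limma adjusted p = 0.152; IL6ST fell with the replicate block, 0.00971) and -0.20 for siRNA A (limma adjusted p = 0.999). Set against each other, siRNA A exceeded siRNA B by 0.71, which did not pass (limma adjusted p = 0.340). Of its 4 further probe sets above the filter level, the log2 fold change for both siRNAs ran from -0.65 to -0.25. In 3 of the 4 both siRNA B arrays again lay below the other 4 arrays, and in the remaining one they did not, at 256 and 298 against 277 and 241 under siRNA A.

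ICAM1, an adhesion molecule for leukocytes, had signals of 55.5 and 63.4 in control and 39.6 to 74.1 with SOX9 siRNA, overlapping, and lay at -0.18 on the log2 scale (limma adjusted p = 0.929). BIRC2, a ubiquitin ligase of the TNF receptor complex, had 1507 and 1639 in control and 1274 to 1671 with SOX9 siRNA. BIRC2 lay at -0.14 (limma adjusted p = 0.938). TRAF1, an adaptor, had 24.7 and 28.7 in control and 5.7 to 20.5 with SOX9 siRNA, near or below the filter signal.

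**Figure D2:**
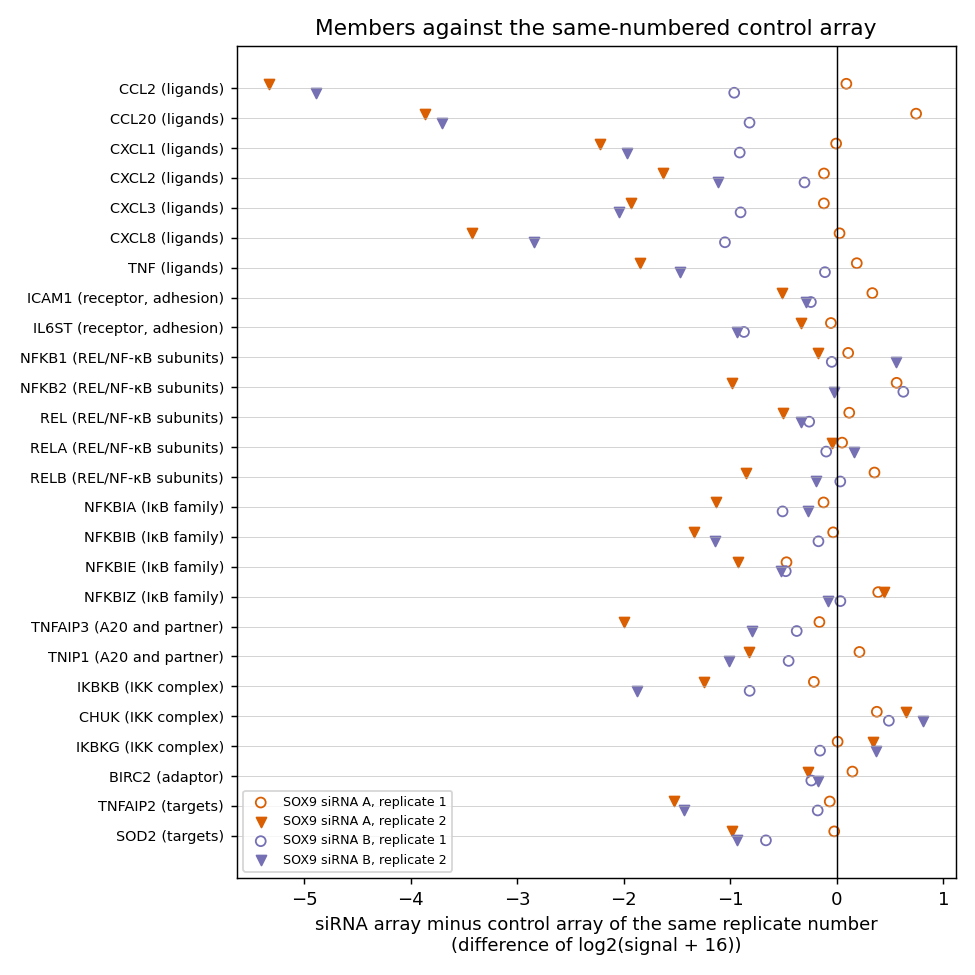
Each SOX9 siRNA array minus the control array of the same replicate number, on the scale of log2(signal + 16), for the 26 tested members ordered by role; open circles are replicate 1 and filled triangles replicate 2. The ligand triangles reach -5.33 (CCL2, siRNA A), while the REL and NF-kappaB subunit genes lie between -0.99 and 0.63.

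Over the 26 tested members, 0 were called for both siRNAs against control in limma at an adjusted p below 0.05, where 0.0402% of all tested genes were. At an unadjusted p below 0.05 there were 13 of 26 members, each lower, and 7.75% of all tested genes. That member count depended on scaling. It was 5 with quantile normalization, 6 with median centring and 5 with a common trimmed mean. The count over all tested genes was 1112, 1007 and 1088 in the same order, against 964 unscaled. With the replicate block 8 of 26 were called, each lower, where 3.53% of genes were: CCL2, CCL20, CXCL1, CXCL3, CXCL8, TNFAIP3, TNFAIP2 and IKBKB. With the block and median centring of the arrays 7 were called (4.46% of genes), CHUK higher and 6 lower, with TNFAIP2 and TNFAIP3 no longer among them. Without control replicate 1, 2 members were called (CCL2 and CCL20; 0.177% of genes), and without control replicate 2, 3 were (CCL2, CCL20 and CXCL8; 0.257% of genes). When replicate 2 of both SOX9 siRNAs was left out, 0 of 26 were called (0% of genes), with 2 members at an unadjusted p below 0.05. When replicate 1 of both was left out, 10 were called (4.71% of genes), namely those 8 with CXCL2 and TNF. The sign for both siRNAs was negative in 20 of 26 members and in 55.1% of genes.

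Against the same-numbered control, 10 of 26 members were more than 2-fold lower in both replicate 2 siRNA arrays, as were 2.08% of all tested genes. They were the 7 tested ligands, NFKBIB, IKBKB and TNFAIP2. In replicate 1 there were 0 of 26 members and 0.0644% of genes. In 13 of 26 members both replicate 2 siRNA arrays lay below the other 4, against 12.5% of genes, and in 1 member, CHUK, both lay above, against 18.5%. All 4 siRNA arrays lay below both controls in 10 of 26 members, against 11.8% of genes, and above in 1, again CHUK, against 4.58%.

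The median log2 difference of the 26 members from the same-numbered control was 0.04 in replicate 1 of siRNA A, -0.28 in replicate 1 of siRNA B, -0.99 in replicate 2 of siRNA A and -0.87 in replicate 2 of siRNA B. Over all tested genes it was 0.06, -0.10, -0.15 and 0.06 in the same order. The 2 control arrays differed by a median of 0.12 over the members and 0.14 over all tested genes. The list therefore sat near the general level of the array in replicate 1 of siRNA A and lowest in replicate 2.

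Taken alone, siRNA A against control gave 0 of 26 members called in limma (0.0161% of genes; 3 members and 4.69% of genes at an unadjusted p below 0.05). With the replicate block it gave 6 (1.79% of genes): CCL2, CCL20, CXCL1, CXCL3, CXCL8 and TNFAIP3. For siRNA B the counts were 0 (0.185% of genes; 9 members and 11.3% of genes at an unadjusted p below 0.05) and 8 with the block (5.94% of genes). The 8 were CCL2, CCL20, CXCL1, CXCL3, CXCL8, IKBKB, IL6ST and TNFAIP2. Both comparisons share the 2 control arrays. For siRNA A the log2 fold change was -2.62 for CCL2, -1.56 for CCL20 and -1.70 for CXCL8, and for siRNA B it was -2.93, -2.26 and -1.94.

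The siRNAs were also set against each other. In limma 0 of 26 members were called (0.0965% of genes), with 1 member, IL6ST, and 8.25% of genes at an unadjusted p below 0.05, and 0 were called with the replicate block (2.90% of genes). The difference of siRNA A minus siRNA B was 0.31 for CCL2 (SE 1.24, limma adjusted p = 0.983) and 0.70 for CCL20 (SE 0.91, limma adjusted p = 0.947). Both errors exceed the difference they belong to, so no difference between the siRNAs was detectable for these 2 genes.

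The 3 arrays with the lowest SOX9 signal were also the 3 with the lowest ligand median, in another order. Replicate 2 of siRNA A and replicate 1 of siRNA B had like SOX9 signals, 673 and 609. Relative to the control mean, the median of the 7 tested ligands was -2.37 in the first and -0.84 in the second on the log2 scale. It was 0.14 in replicate 1 of siRNA A, with SOX9 at 1108, and -2.12 in replicate 2 of siRNA B, with SOX9 at 334. These are 6 arrays set side by side, with no test.

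**Figure D3:**
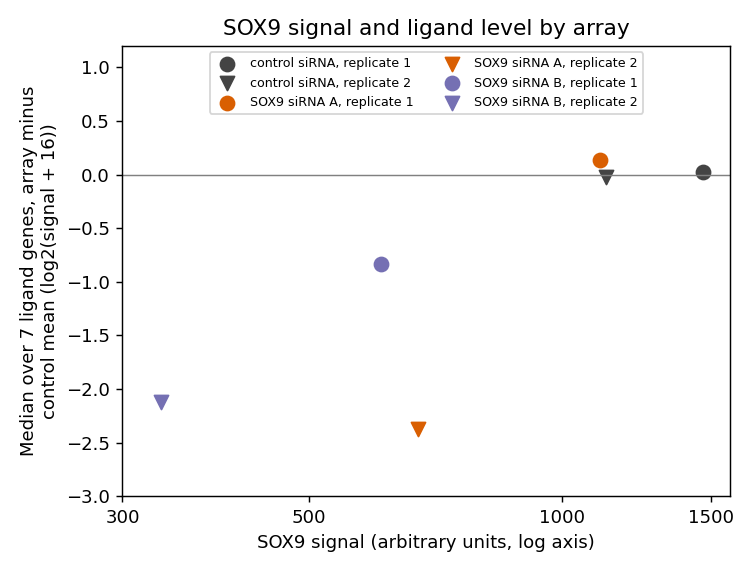
SOX9 signal (horizontal, log axis, arbitrary units) against the median difference of the 7 tested ligand genes from the control mean (vertical, log2(signal + 16)) in each of the 6 arrays. The 2 replicate 2 siRNA arrays sit at -2.37 and -2.12, below replicate 1 of siRNA B at -0.84, and the control arrays and replicate 1 of siRNA A lie near 0.

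CXCL8, CXCL1, CXCL3 and CXCL2 lie in 1 cluster of CXC chemokine genes on chromosome 4. In the RefSeq GRCh38.p14 gene table the stretch from CXCL8 to CXCL2 holds 9 protein-coding genes, in the order CXCL8, CXCL6, PF4V1, CXCL1, PF4, PPBP, CXCL5, CXCL3 and CXCL2. CXCL5, another CXCR2 ligand, had a signal of 301 and 352 in control, 281 and 49.9 under siRNA A and 108 and 38.6 under siRNA B. CXCL6 had 104 and 69.1, 64.1 and 16.2, and 42.6 and 14.2. In both neighbours the replicate 2 siRNA arrays were the lowest 2, and both fell with the replicate block (limma adjusted p = 7.44e-10 for CXCL5 and 0.00135 for CXCL6).

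The probe sets of CXCL5 and PF4 are of the x_at class too. The platelet chemokine genes of the same stretch did not show that order. PF4V1 had 81.3 and 71.3 in control, 49.5 and 35.9 under siRNA A and 71.4 and 51.5 under siRNA B, and lay at -0.46 on the log2 scale (blocked limma adjusted p = 0.434). PF4 had 42.6 and 59.7, 18.1 and 42.5, and 19.1 and 16.8, with all 4 siRNA arrays below both controls, narrowly for replicate 2 of siRNA A. PF4 lay at -0.775 for both siRNAs (blocked limma adjusted p = 0.103). For siRNA B alone it fell in the blocked fit (limma adjusted p = 0.0420). PPBP had at most 14.1 in any array. This stretch was chosen after the values of the members were seen.

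**Figure D4:**
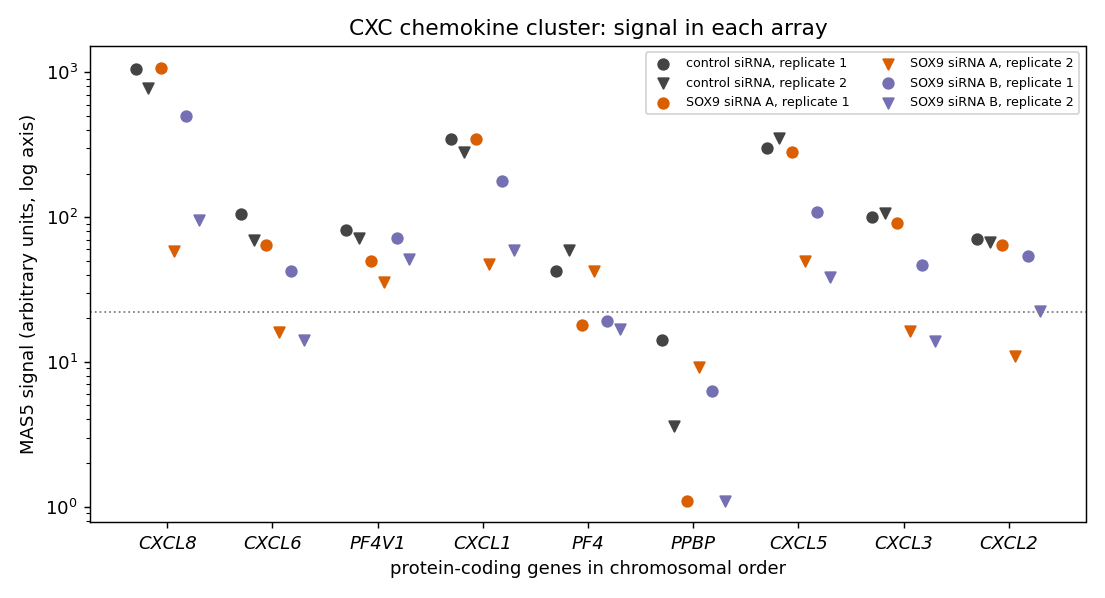
MAS5 signal (log axis, arbitrary units) in each of the 6 arrays for the 9 protein-coding genes from CXCL8 to CXCL2, in chromosomal order and not to scale; the dotted line is the filter signal of 22. CXCL8, CXCL6, CXCL1, CXCL5, CXCL3 and CXCL2 have the replicate 2 siRNA arrays lowest, for CXCL5 at 49.9 and 38.6, and PF4V1, PF4 and PPBP do not.

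Other genes of the pathway were read from 5 lists. Of 44 further NF-kappaB target genes 22 were tested, with a median log2 fold change of -0.32 against -0.04 over all tested genes. None was called for both siRNAs, and 9 had an unadjusted p below 0.05, against 7.75% of all tested genes. For the siRNAs combined 8 fell with the replicate block, where 2.42% of all tested genes did. The 8 were CXCL5, CXCL6, CXCL10, CXCL11, TNFSF10, TNFSF15, SDC4 and EFNA1. TNFSF15, a TNF family ligand, had a signal of 847 and 427 in control, 477 and 109 under siRNA A and 191 and 83.6 under siRNA B.

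CXCL10, a ligand of CXCR3 that interferon also induces, had 1199 and 1174 in control, 1856 and 125 under siRNA A and 610 and 81.5 under siRNA B. CXCL11, of the same kind, had 867 and 1309, 1710 and 682, and 442 and 55.5. Its log2 fold change was 0.02 for siRNA A alone, which did not pass with the block (limma adjusted p = 0.999). For siRNA B alone CXCL11 lay at -2.58 and fell with the block (limma adjusted p = 2.07e-16), but did not pass without it (0.117). The siRNAs also differed for CXCL11 in the blocked fit only (limma adjusted p = 2.56e-16). Without the block that difference did not pass (limma adjusted p = 0.1585). Like CCL2, CXCL10 was lowest in replicate 2 of the siRNAs and highest in replicate 1 of siRNA A. In 11 of the 22 genes both replicate 2 siRNA arrays lay below the other 4, against 12.5% of all tested genes. In 6 both were more than 2-fold below their control, against 2.08% of all tested genes. On the other side, F3 (tissue factor) had a log2 fold change of 0.24, CSF1 of 0.19 and CFLAR of 0.14 (limma adjusted p from 0.881 to 0.947).

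Of 40 other pathway components 34 were tested, with a median of -0.06. None was called for both siRNAs, and 2 had an unadjusted p below 0.05 in limma, against 7.75% of all tested genes. With the replicate block 1 fell, against 2.42% of all tested genes, so both counts are near the background. The 1 was TNFRSF11A (RANK), a receptor that signals to NF-kappaB. It had a signal of 400 and 330 in control, 232 and 82.7 under siRNA A and 178 and 144 under siRNA B (log2 fold change -1.19; limma adjusted p = 6.76e-05 with the block). TNFRSF10B, a death receptor, had -0.63 and TRAF5 -0.59. The adaptor MYD88 had 0.32, CYLD, a deubiquitinase, 0.29 and the kinase TBK1 0.28.

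Receptors of the member ligands were mostly dim, with 5 of 12 tested and CCR2, CCR6, CXCR1 and CXCR2 below the filter. None of the 5 was called in limma, with 0 at an unadjusted p below 0.05. The log2 fold change was -0.45 for IL6R, -0.32 for IL1R1, -0.19 for LIFR and 0.40 for IL1RAP. Of 18 IL6 and LIF response genes 13 were tested, with a median of -0.06 and 0 called. Of the 13, 1, TYK2 (0.57), had an unadjusted p below 0.05, against 7.75% of all tested genes. STAT3 had 0.43, JUNB 0.35, SOCS3 -0.32, CEBPB -0.23 and BCL6 -0.19. Of 10 AP-1 and immediate early genes 9 were tested, with a median of -0.14 and 0 called in limma (0 at an unadjusted p below 0.05). FOS had 0.46, FOSB 0.37, ZFP36 0.21, JUN -0.33, FOSL2 -0.39 and MAFF -0.44. In none of these 3 lists was a gene called with the replicate block.

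Markers of other cell types were set beside these values. Of 12 leukocyte markers 11 had a probe set of their own and 1, CD79A, passed the filter. Their summed signal was 141 and 197 in control and 149 to 222 with SOX9 siRNA, and the defining marker PTPRC (CD45) had at most 23.0. The 3 leukocyte markers named next were below the filter and were chosen after their values were seen. LYZ (lysozyme) had 50.8 and 45.6 in replicate 2 of siRNA A and siRNA B and 7.9 to 12.6 elsewhere. MS4A1 and CD3E, of lymphocytes, had both replicate 2 siRNA arrays lowest, at 3.1 and 3.5 and at 3.5 and 6.1. Of 6 endothelial markers 1, PECAM1, passed, with a summed signal of 64.7 and 73.3 in control and 49.4 to 111 with siRNA. Of 9 fibroblast and stromal markers LUM and COL1A1 passed, and the summed signal was 393 and 564 in control and 424 to 2309 with siRNA. LUM (lumican) was the brightest of them in every array, at 155 and 385 in control, 262 and 662 under siRNA A and 702 and 2019 under siRNA B, while DCN, PDGFRA, PDGFRB and THY1 were below the filter. LUM rose for the siRNAs combined with the replicate block (limma adjusted p = 7.97e-07). In that fit it rose for siRNA B alone (limma adjusted p = 7.14e-12) and did not pass for siRNA A alone (0.246). COL1A1, a fibrillar collagen, had 135 and 115 in control, 82.5 and 30.9 under siRNA A and 223 and 196 under siRNA B. It fell under siRNA A in the blocked fit (limma adjusted p = 0.0102) and did not pass for both siRNAs (0.849). The part of these markers, and of the low KLK3 and TMPRSS2 signal, in the chemokine values was not tested.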

How the data were processed

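Biotin-labelled material from 6 ug of total RNA per sample was hybridised to Affymetrix U133 Plus 2.0 arrays, per the labels' protocols. The authors deposited a linear intensity for each of 54675 probe sets, made with MAS5 per the submitters' processing notes. No version or target level was found in the labels. Signals were taken as log2(signal + 16), without 62 control probe sets. Probe sets were named from the platform annotation, and 31 of 31 members kept their symbol under GRCh38.p14 RefSeq identifiers. Genes with a mean under the median probe set (log2 level 5.25) were not tested.

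The other 12431 genes were fitted with limma 3.58.1 (R 4.3.3), with 3 group means, 3 residual degrees of freedom and an intensity trend. The threshold was an adjusted p (Benjamini-Hochberg, over all genes tested) of 0.05. The fit was tested on simulated data. Deviations of same-numbered arrays correlated at 0.63 between the siRNAs, and at 0.18 between either siRNA and control. The replicate block and the same-numbered comparisons take the replicate numbers as pairing the arrays of all groups. The data show such pairing mainly between the siRNAs, and the labels do not state it. The pairing of siRNA arrays with control arrays is therefore an assumption. The 20 alternatives covered log offsets, scaling, filters, probe set choice, eBayes settings, the replicate block and arrays left out. Members and lists were chosen with earlier results of these data known. Any member could be named. Each other pathway list gave up to 3 genes per direction by smallest p. Genes called only with the block were named after their values were seen.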

Additional observations from a re-analysis of the deposited data

Results flagged for a closer look

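IL1B was at opposite sides of control with the 2 siRNAs. Both siRNA A arrays (26.0 and 28.9) lay above both control arrays (15.5 and 13.5), and both siRNA B arrays (4.3 and 4.0) lay below them. The mean difference of siRNA A minus siRNA B was 1.11 on the scale of log2(signal + 16). The difference was not tested, because IL1B lay below the filter level, and the second IL1B probe set gave 25.1 and 13.4, 7.5 and 4.3, and 19.8 and 3.3 for siRNA A, siRNA B and control.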

How the results depend on the processing

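The count of 0 members called for both siRNAs became 8 with the replicate block, 7 with the block and median centring (CHUK higher and 6 lower, without TNFAIP2 and TNFAIP3), and 10 without replicate 1 of both SOX9 siRNAs. Fits with 1 array left out leave 1 array in a group, so they are given as fold changes and not as counts. For siRNA A the count was 6 with the replicate block and 2 with the block and median centring (1.60% of all genes). For siRNA B it was 8 with the block and 10 with the block and median centring (8.68% of genes). With 1 array left out it was 0 to 3: 2 without its replicate 1 (IKBKB and IL6ST; 8.06% of genes, so near the background), 2 without control replicate 1 (0.330%) and 3 without control replicate 2 (0.499%). For siRNA A against siRNA B it was 1 with the block and median centring (IL6ST; 4.73% of genes, so no more than the background). The other alternatives without a group of 1 array left these counts at 0. The median difference of the members within replicate 2, -0.82 over both siRNAs, was -0.64 with no filter, -0.65 with a log offset of 64 and -0.67 with the stricter filter, which kept 14 members. Within replicate 1 it stayed from -0.20 to -0.08 around -0.11. The median log2 fold change of the members for both siRNAs, -0.57, ran from -0.75 to -0.22 over the 20 alternatives, lowest without replicate 1 and highest without replicate 2 of both siRNAs.

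Signs turned in IKBKG, NFKBIZ and the 5 subunit genes and in no other member under the alternatives run. With 1 array left out, the log2 fold change for both siRNAs ran from -0.072 to 0.349 for IKBKG (lowest without control replicate 2), -0.097 to 0.318 for NFKB1 and -0.268 to 0.357 for NFKB2. It ran from -0.065 to 0.459 for NFKBIZ, -0.046 to 0.081 for RELA and -0.378 to 0.049 for RELB. Leaving out replicate 2 of both SOX9 siRNAs gave -0.082 for NFKB1, -0.050 for NFKBIZ, -0.022 for RELA and 0.019 for RELB. Leaving out replicate 1 of both gave -0.192 for NFKB2, and the median over probe sets gave 0.02 for REL. The cause was not tested. Signals near or below 22 limit what can be said of CCL20, CXCL2, CXCL3, TNF, NFKBIB, IL6, IL1A, IL1B, LIF and TRAF1.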
